A study of Mus musculus with 3 samples.

Results

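The fibroblast growth factor (FGF) receptors and ligands were followed through the cell populations of the growing mouse long bone. The members were the receptor genes Fgfr1, Fgfr2, Fgfr3 and Fgfr4 and the ligand genes Fgf1, Fgf2, Fgf7, Fgf9, Fgf18 and Fgf23, which are 10 of the 55422 genes listed in the count matrices and were found there by symbol. FGFs bind receptor tyrosine kinases at the cell surface. The paracrine ligands (Fgf1, Fgf2, Fgf7, Fgf9 and Fgf18) need heparan sulphate as a cofactor and act close to their source, whereas Fgf23 is a hormone of phosphate balance that needs the coreceptor alpha-Klotho (Kl) and is known as a product of osteocytes. In the growth plate, Fgfr3 restrains chondrocyte proliferation, and activating mutations of this receptor cause achondroplasia.

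The study profiled single cells of the femur and tibia of untreated 3-week-old male mice on the C57BL/6 background by droplet sequencing of transcript 3′ ends, in order to characterize septoclasts, the cartilage-resorbing cells next to the growth plate. For 2 libraries (metaphyseal 1 and metaphyseal 2), wild-type metaphyses were depleted with beads of cells carrying haematopoietic lineage markers, CD45 or CD117. For 1 library (Pdgfra-GFP), GFP+ cells were sorted from the metaphysis-epiphysis region of heterozygous Pdgfra-H2B-GFP mice, in which a nuclear GFP is expressed from the Pdgfra locus. Dissected region, sort and genotype changed together between the preparations and cannot be told apart. The labels do not say whether the replicates came from separate animals. The p-values therefore rest only on how population sums varied across these 3 libraries.

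After filtering, 2389, 2011 and 11319 cells were kept, with a median of 6257, 6458 and 5354 unique molecular identifiers (UMIs) per cell. Here and throughout, values are given in the order metaphyseal 1, metaphyseal 2, Pdgfra-GFP. The kept cells of the Pdgfra-GFP library shared 9 and 10 barcodes with the metaphyseal libraries, which shared 0 with each other. Cells were assigned to populations by scores of marker genes that included no member, and each population is named only in the sense that its cells resemble the type whose markers they carry. The growth-plate chondrocytes (38, 36 and 1519 cells), marrow stroma with Lepr and Cxcl12 (752, 698 and 4326 cells), metaphyseal stroma with Postn (52, 40 and 1144 cells), osteoblasts (206, 176 and 1785 cells), septoclasts (12, 11 and 222 cells) and endothelium (1123, 893 and 309 cells) each had all markers of their list detected in every library. The osteocytes (16, 17 and 118 cells) had 4, 5 and 6 of 6 markers detected, and Sost, which defines mature osteocytes, was at 0, 0 and 96.4 CPM (its count scaled to a common total of UMIs). These markers set the gates, so their detection is no independent sign of identity. Endothelium, too, had 10 of 10 growth-plate chondrocyte markers detected in every library. The populations are ranges of a score. Of the metaphyseal stroma cells, 20, 13 and 200 lay near its limits, as did 7, 7 and 36 of the osteocytes, within 0.05 of the minimum score or margin. The Pdgfra-GFP endothelium carried the H2B-GFP transcript at 143 CPM and Pdgfra at 4.34 CPM. Its part in the endothelial values was not tested. Superficial chondrocytes with Prg4 (555 cells) and fibroblasts (167 cells) are described from the Pdgfra-GFP library alone, with no replicate.

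Levels are CPM of the summed cells of a population in a library, the error between libraries is the SD over 3 libraries, and intervals in brackets are exact 95% Poisson intervals that cover counting error only. Levels are compared between populations and not between genes, since 3′ counts are not set per length, and the 3′ reads do not separate the splice forms of Fgfr1, Fgfr2 or Fgfr3. Fold changes come from edgeR's quasi-likelihood test on the summed counts with the library as a block, each with its SE. The same model held the sums of all populations. Its spread is what remains after population and library effects, shared over all populations and not taken from the compared pair alone. The p-values were adjusted over all genes tested by the Benjamini-Hochberg method and called below 0.05. Of the 10 members, 8 passed the filter on low counts, and Fgfr4 and Fgf23 were described by their counts. The filter could be passed on 1 population sum, since superficial chondrocytes and fibroblasts had 1 sum each. Fgf2 and Fgf18 had their highest sums in these populations, and Fgf9 in superficial chondrocytes and osteocytes. They may have passed on those sums alone, and were then tested in populations with few of their UMIs.

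Fgfr3 was higher in growth-plate chondrocytes than in osteoblasts and marrow stroma. Its level in these chondrocytes was 157 [127-192], 166 [138-198] and 144 [138-151] CPM, from 94, 120 and 2019 UMIs. The osteoblasts had 11.8, 9.88 and 9.76 CPM, and the marrow stroma had 37.0, 37.0 and 26.9 CPM. All 3 chondrocyte values lay above every value of these populations, and the metaphyseal stroma stood between them at 38.2, 61.7 and 69.6 CPM. The log2 fold change of Fgfr3 was 3.53 ± 0.27 (SE) against osteoblasts (edgeR adjusted p = 1.35e-11) and 2.60 ± 0.25 against marrow stroma (adjusted p = 8.49e-10), higher in 3 of 3 libraries in both. No alternative ended either call.

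A UMI of Fgfr3 was found in 52.6%, 72.2% and 64.0% of the growth-plate chondrocytes. In erythroid cells, which should lack the gene and here serve as a background, the share was 8.33%, 0% and 7.94%. The stromal gene Cxcl12 was at 1490, 229 and 880 CPM in erythroid cells and 261, 342 and 783 CPM in endothelium. This background may therefore hold more than free RNA in metaphyseal 1, which was not tested. The median depths were 15984, 20774 and 8965 UMIs per chondrocyte and 11520, 11831.5 and 8037 UMIs per erythroid cell. After each cell was thinned to 2000 UMIs, the shares were 13.2%, 36.1% and 24.8% of chondrocytes. They were 0%, 0% and 1.61% of the 12, 10 and 62 erythroid cells thinned. The chondrocyte share was the higher in each library, but 0 of 12 cells allows a background share of up to 26.5% in metaphyseal 1. The thinned erythroid shares alone therefore do not place the chondrocytes of metaphyseal 1 above the background. In that library the thinned share was 1.42% of 1123 endothelial cells and 0% of 84 haematopoietic cells, both below the chondrocyte share.

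The gene lies on the forward strand at chr5:33721674-33737068 of GRCm38, and Fgf7, the ligand gene with the opposite distribution, lies on the forward strand at chr2:126034658-126091185. The bases upstream of their start sites are shown because these genes were called in opposite directions between growth-plate chondrocytes and marrow stroma. Each sequence runs from 250 to 51 bases before a RefSeq start (GRCm38.p6, forward strand, chr5:33721474-33721673 and chr2:126034408-126034607), and capitals mark the letters GGGCGG or their complement CCGCCC, the GC box.
Fgfr3: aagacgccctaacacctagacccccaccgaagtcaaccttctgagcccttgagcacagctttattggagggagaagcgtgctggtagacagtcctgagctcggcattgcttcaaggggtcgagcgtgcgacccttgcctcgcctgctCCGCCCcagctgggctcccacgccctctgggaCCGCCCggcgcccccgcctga
Fgf7: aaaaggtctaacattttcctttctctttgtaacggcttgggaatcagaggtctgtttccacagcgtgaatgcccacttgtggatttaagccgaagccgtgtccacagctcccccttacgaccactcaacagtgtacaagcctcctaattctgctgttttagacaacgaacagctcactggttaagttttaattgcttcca
The Fgfr3 stretch held 14 CpG and 2 GC boxes at a GC content of 65.0%. The Fgf7 stretch held 6 CpG and no GC box at a GC content of 45.5%. Over the 32851 RefSeq windows of the same 200 bases, 24.6% held a GC box on either strand and 9.14% held TATAAA, which was in neither stretch, with a median of 4 CpG and a median GC content of 51.5%. These matches describe letters and no measured binding. The windows end 51 bases before the RefSeq start, so the absence of TATAAA says nothing about the bases nearer to it. Windows of 8 of the 10 members were read, those of Fgfr1 and Fgf1 were not.

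Fgfr2, whose epithelial and mesenchymal splice forms bind different ligands, was the receptor of the marrow stroma. Its level there was 492 [472-513], 485 [464-507] and 234 [227-241] CPM. The metaphyseal stroma followed with 208, 241 and 185 CPM, a range that overlapped the lower marrow value of the Pdgfra-GFP library, although the marrow value was the higher of the pair within each library. The level fell to 42.1, 49.4 and 32.8 CPM in osteoblasts, to 16.7, 34.6 and 48.4 CPM in growth-plate chondrocytes, and to a mean of 6.99 ± 0.852 CPM (SD, n = 3) in endothelium. The log2 fold changes against marrow stroma were -2.97 ± 0.34 in chondrocytes (edgeR adjusted p = 1.86e-08), -2.55 ± 0.31 in osteoblasts (adjusted p = 4.51e-08) and -5.86 ± 0.38 in endothelium (adjusted p = 1.35e-13). These 3 comparisons share the marrow stroma sums and are not independent of each other.

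The lower Fgfr2 values were read beside erythroid cells and barcodes with few UMIs. Erythroid cells had 37.6, 5.72 and 30.3 CPM of Fgfr2, and the barcodes with few UMIs had 120, 131 and 91.5 CPM. Here and below, the CPM of these barcodes gives the make-up of free RNA, not the amount it adds to a cell. Endothelium had 6.01, 7.52 and 7.45 CPM of Fgfr2, below the osteoblasts in each library. In marrow stroma a UMI of Fgfr2 was found in 91.1%, 90.5% and 56.5% of cells at a median depth of 5690, 5759.5 and 3626.5 UMIs, and in 16.7%, 10.0% and 19.0% of the deeper erythroid cells. With 2000 UMIs per cell the shares were 59.7%, 62.6% and 36.7% against 0%, 0% and 8.06%. Osteoblasts lay above the erythroid cells in each library, by a small margin in metaphyseal 1 and Pdgfra-GFP, with a UMI in 52.9%, 60.8% and 29.8% of cells at their greater depth and in 9.22%, 9.66% and 7.25% at 2000 UMIs. In the Pdgfra-GFP library, which held 62 of the erythroid cells thinned, the osteoblast share at 2000 UMIs was below the erythroid share. Growth-plate chondrocytes were below the erythroid cells in metaphyseal 1, and osteocytes in metaphyseal 1 and Pdgfra-GFP. Osteoblasts, osteocytes and chondrocytes were all below the barcodes with few UMIs, whereas both stromal populations were above the erythroid cells and these barcodes in each library.

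Fgfr1, a receptor used broadly by mesenchymal cells, was high along the osteoblast lineage and low in vessels. It reached 248, 247 and 235 CPM in osteoblasts, 236, 274 and 255 CPM in metaphyseal stroma and 243, 250 and 441 CPM in osteocytes. The septoclasts had 156, 330 and 160 CPM and the growth-plate chondrocytes 142, 177 and 274 CPM, and the ranges of neighbours in this order overlapped. The marrow stroma at 115, 107 and 111 CPM, the mural cells at 72.7, 69.0 and 65.6 CPM and the endothelium at 41.0, 42.1 and 57.7 CPM followed, each step without overlap. The barcodes with few UMIs had 106, 101 and 148 CPM. Mural cells and endothelium lay below these barcodes in each library, and the marrow stroma in Pdgfra-GFP alone. Against marrow stroma the log2 fold change was 1.87 ± 0.26 in osteoblasts (edgeR adjusted p = 6.34e-07), 1.20 ± 0.27 in chondrocytes (adjusted p = 0.000405), 1.19 ± 0.27 in metaphyseal stroma (adjusted p = 0.00114) and -1.27 ± 0.27 in endothelium (adjusted p = 0.000189). Unlike CPM, fold changes include a scaling factor per sum (TMM). It was 0.797, 0.777 and 0.589 in osteoblasts, 1.23, 1.23 and 1.11 in metaphyseal stroma, and 1.26, 1.24 and 1.11 in marrow stroma. The fold change was thus larger in osteoblasts than in metaphyseal stroma although their CPM ranges overlapped. A UMI of Fgfr1 was found in 98.1%, 96.6% and 89.6% of osteoblasts (37.9%, 35.8% and 39.0% at 2000 UMIs) and in 16.7%, 10.0% and 19.0% of erythroid cells (8.33%, 0% and 1.61% at 2000 UMIs), at median depths of 21458, 20800 and 11234 UMIs per osteoblast.

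Between growth-plate chondrocytes and osteoblasts the Fgfr1 libraries did not move together. The log2 fold change was -0.67 ± 0.26 (edgeR adjusted p = 0.0478), lower in 2 of 3 libraries, while the CPM of the Pdgfra-GFP library was higher in chondrocytes. The call was lost without metaphyseal 1 (adjusted p = 0.368), without metaphyseal 2 (adjusted p = 0.164), with the cells thinned (-0.17, adjusted p = 0.724) and without the replicate block (adjusted p = 0.361). For Fgfr2 the same comparison gave -0.42 ± 0.33 (adjusted p = 0.36), and it was called only without the Pdgfra-GFP library (-1.02, adjusted p = 0.0182).

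Fgfr4, a receptor best known from liver and muscle, was near the limit of detection. It had 1, 4 and 14 UMIs in growth-plate chondrocytes (1.67, 5.53 and 1.0 CPM), 3 UMIs over all osteoblasts, 1 UMI in the metaphyseal stroma and 0 in marrow stroma. Of the chondrocyte UMIs, 0, 3 and 9 fell in columnar or resting cells and 0, 1 and 0 in hypertrophic cells. Pooled over libraries, the 19 chondrocyte UMIs came to 10.7 times a limit of 3 counts in marrow stroma, without their counting error. The fold was smaller within each library, where the marrow stroma limits were 0.672, 0.717 and 0.175 CPM. Against osteoblasts the pooled ratio was 11.8, with a counting interval of 3.46 to 62.1.

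Within the growth plate, the receptors were compared between hypertrophic chondrocytes (17, 14 and 152 cells) and columnar or resting chondrocytes (13, 16 and 765 cells), a comparison added after the data were seen. Fgfr3 was at 108 [68.5-162], 50.7 [27.7-85.1] and 223 [202-245] CPM in hypertrophic and at 217 [165-280], 245 [196-303] and 138 [129-147] CPM in columnar or resting cells. The metaphyseal libraries thus had the higher level in columnar or resting cells and the Pdgfra-GFP library in hypertrophic cells, and the intervals did not overlap within any library. The zones were not alike between libraries. The hypertrophic marker Col10a1 was at 35600, 29800 and 9850 CPM in hypertrophic cells, and Prg4 at 0, 82.7 and 454 CPM in columnar or resting cells. Their part in the Fgfr3 values was not tested. Fgfr1 was at 169, 275 and 289 CPM in hypertrophic and 99.4, 48.5 and 258 CPM in columnar or resting cells, higher in hypertrophic cells in each library.

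In the joint fit, 0 of the 8 members tested were called between these zones, against 8.13% of 13621 genes (4.43% higher and 3.70% lower in hypertrophic cells). The members' median log2 fold change was -0.74 and that of all genes -0.08. The values for Fgfr3 were -0.45 ± 0.35 (edgeR adjusted p = 0.513) and for Fgfr1 0.78 ± 0.35 (adjusted p = 0.186). Without the Pdgfra-GFP library, Fgfr3 was lower (-1.65, adjusted p = 0.00122) and Fgfr1 higher (1.64, adjusted p = 0.00132) in hypertrophic cells. The DESeq2 Wald test gave a value for Fgfr1, Fgfr2, Fgfr3, Fgf1, Fgf2 and Fgf7 and called none of them, and edgeR with called doublets removed called Fgf2 lower in hypertrophic cells (-2.16, adjusted p = 0.0471). The 101 cycling chondrocytes of the Pdgfra-GFP library had 117 [99.2-138] CPM of Fgfr3, below its columnar or resting cells with intervals that overlapped.

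Within the endothelium the receptors were read by vessel type, with no test. Arterial endothelium had 25.4, 23.6 and 36.8 CPM of Fgfr3, against 7.07, 11.7 and 9.07 CPM in metaphyseal and 5.50, 3.88 and 6.78 CPM in sinusoidal endothelium. The arterial values lay above all others in each library, and the metaphyseal and sinusoidal values overlapped erythroid cells at 7.52, 0 and 8.91 CPM. The barcodes with few UMIs had 24.2, 29.2 and 39.6 CPM of Fgfr3, which the arterial values exceeded in metaphyseal 1 alone. Fgfr1 was at 57.5, 34.4 and 75.8 CPM in arterial, 51.6, 53.5 and 67.1 CPM in metaphyseal and 26.5, 33.4 and 31.6 CPM in sinusoidal endothelium, lowest in sinusoids in each library. Over all endothelium Fgfr3 was lower than in marrow stroma (-1.75 ± 0.28, edgeR adjusted p = 5.24e-06).

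Fgf7, also called keratinocyte growth factor and a ligand of the epithelial form of Fgfr2, was the ligand gene of the marrow stroma. Its level there was 222 [208-236], 209 [195-223] and 165 [159-171] CPM from 991, 873 and 2820 UMIs. The metaphyseal stroma had 26.0, 18.8 and 23.8 CPM, and the means of osteoblasts, growth-plate chondrocytes and endothelium were 1.53 ± 0.668, 1.46 ± 1.37 and 1.28 ± 0.653 CPM (SD, n = 3). The barcodes with few UMIs had 36.3, 43.8 and 34.6 CPM, above the metaphyseal stroma and below the marrow stroma in each library. Every marrow stroma value lay above every value of the other populations. The log2 fold change against marrow stroma was -3.15 ± 0.30 in metaphyseal stroma (edgeR adjusted p = 3.6e-09), -6.02 ± 0.38 in chondrocytes (adjusted p = 1.77e-13), -6.01 ± 0.32 in osteoblasts (adjusted p = 4.25e-15) and -7.44 ± 0.37 in endothelium (adjusted p = 1.18e-15). A UMI of Fgf7 was found in 61.7%, 64.5% and 44.8% of marrow stroma cells and in 0%, 0% and 3.17% of erythroid cells, and at 2000 UMIs the marrow stroma shares were 34.2%, 34.1% and 28.1%.

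**Figure D1:**
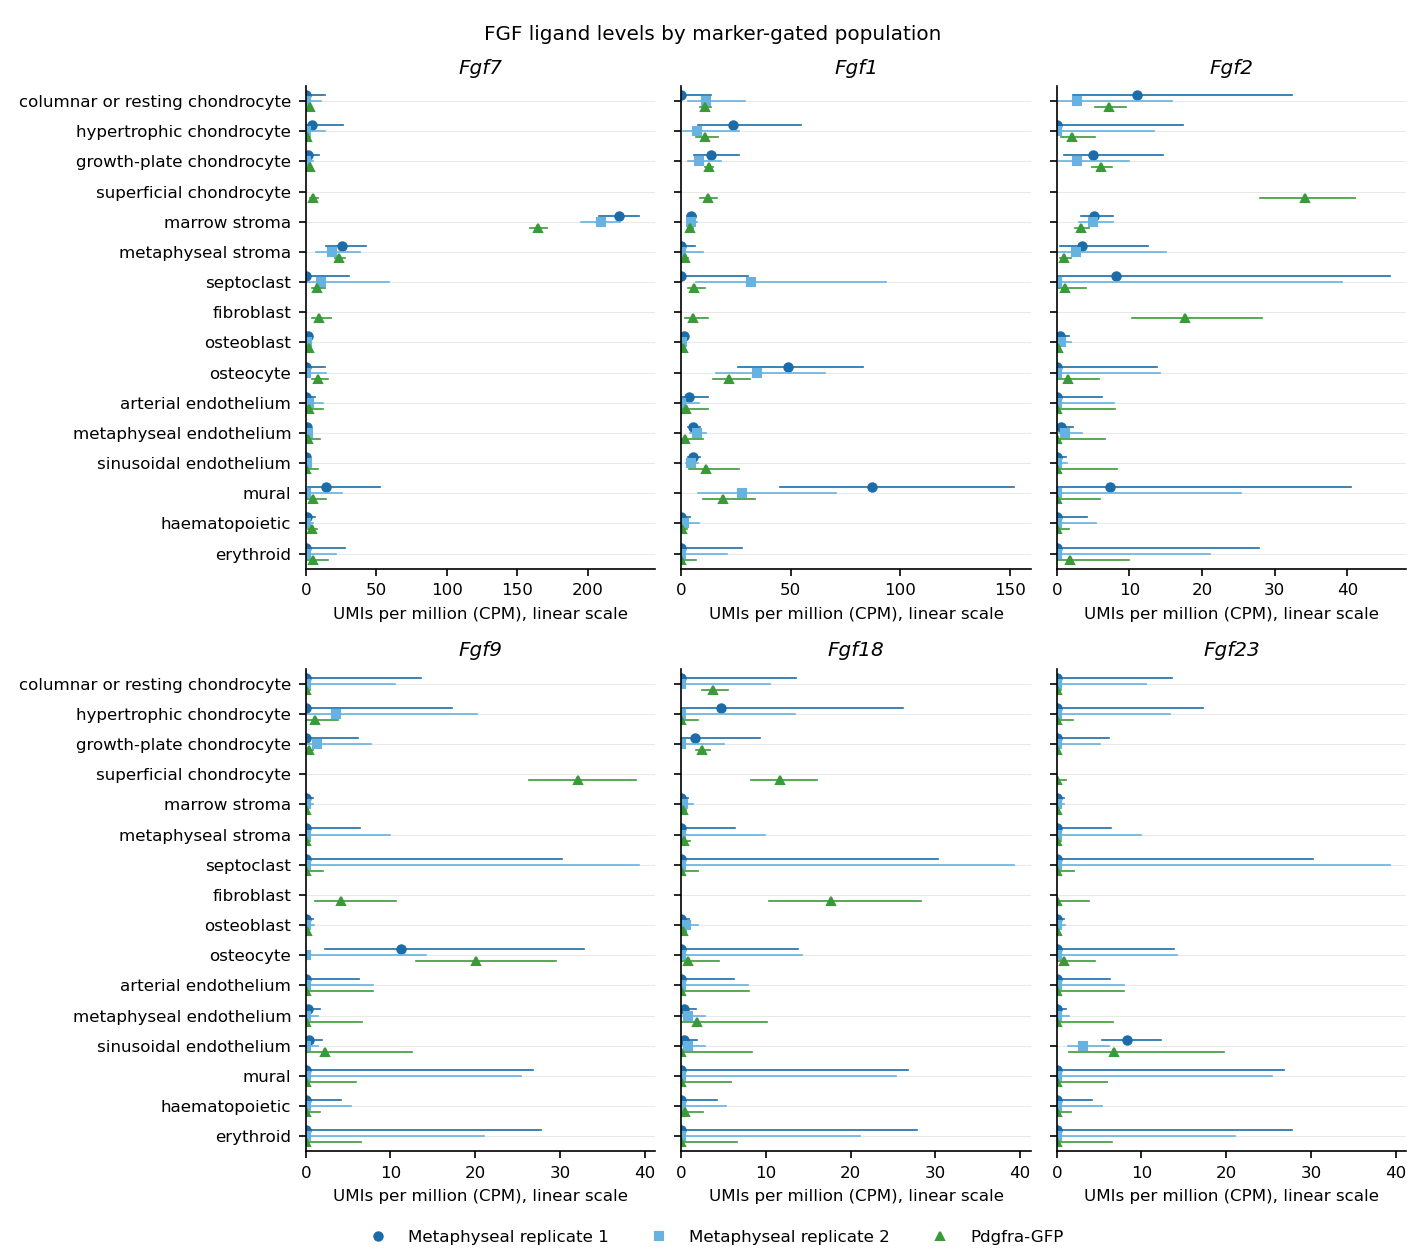
Levels of the 6 ligand genes in CPM (horizontal axes, linear) by population (vertical axis), with 1 point per library and bars for the exact 95% Poisson interval of its count. Fgf7 stood at 165 to 222 CPM in marrow stroma, Fgf1 was highest in mural cells and osteocytes, and Fgf9 reached 32.2 CPM in superficial chondrocytes and 20.1 CPM in the Pdgfra-GFP osteocytes.

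Fgf1, which can bind all FGF receptors, was found in small counts in osteocytes and mural cells. Osteocytes had 48.6, 34.6 and 21.7 CPM from 13, 9 and 27 UMIs, and osteoblasts had 1.16, 0.549 and 0.585 CPM from 19 UMIs over all libraries. Every osteocyte value lay above every osteoblast value, and the log2 fold change was 5.20 ± 0.49 (edgeR adjusted p = 6.41e-08). A UMI was found in 18.8%, 23.5% and 16.9% of osteocytes, while the erythroid cells had 0 UMIs in each library. Mural cells had 87.3, 27.6 and 19.2 CPM from 12, 4 and 12 UMIs, a range that overlapped the osteocytes.

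Growth-plate chondrocytes had 13.4, 8.30 and 12.7 CPM of Fgf1, the endothelium 5.15, 5.07 and 4.34 CPM and the marrow stroma 4.48, 4.54 and 4.09 CPM. The chondrocyte values lay above the others, with a log2 fold change of 3.70 ± 0.45 against osteoblasts (edgeR adjusted p = 1.68e-07) and 1.94 ± 0.36 against marrow stroma (adjusted p = 6.38e-05). Osteoblasts were lower than marrow stroma (-1.76 ± 0.45, adjusted p = 0.00174), a call lost with the cells thinned (adjusted p = 0.0989), and the endothelium did not pass the test against marrow stroma (0.11 ± 0.37, adjusted p = 0.83).

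Fgf9, a ligand of growth plate and joint whose loss shortens the limbs, was at 11.2, 0 and 20.1 CPM in osteocytes, from 3, 0 and 25 UMIs, and at 3 UMIs over all osteoblasts. The osteocyte value came from the Pdgfra-GFP library and, with 3 UMIs, from metaphyseal 1, and metaphyseal 2 had none at a floor of 11.5 CPM. The pooled ratio to osteoblasts was 150 with a counting interval of 46.3 to 771. The edgeR test called it (log2 fold change 6.69 ± 0.83, adjusted p = 9.64e-05) and the DESeq2 Wald test did not (adjusted p = 0.778). Marrow stroma had 0 UMIs of Fgf9 in each library.

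Because the osteocytes are a range of a score, Fgf1, Fgf9 and Fgfr1 were also read in 3 bands of that score, added after the data were seen. Fgf1 had 0, 1 and 12 UMIs from the lowest to the highest band in metaphyseal 1, 0, 0 and 9 in metaphyseal 2, and 2, 5 and 20 in Pdgfra-GFP. In the highest band, of 3, 5 and 48 cells, this came to 233, 226 and 44.8 CPM. Fgf9 had 0, 2 and 1, 0, 0 and 0, and 0, 1 and 24 UMIs in the same bands. Fgfr1 had its highest level in the highest band of each library, at 369, 376 and 712 CPM. The Sost counts of the Pdgfra-GFP library lay in the same band, with 119 of its UMIs against 1 and 0 in the lower bands. Sost is itself a marker in that score, so its place there is no independent sign of what the band holds. These are counts in few cells and carry no test.

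**Figure D2:**
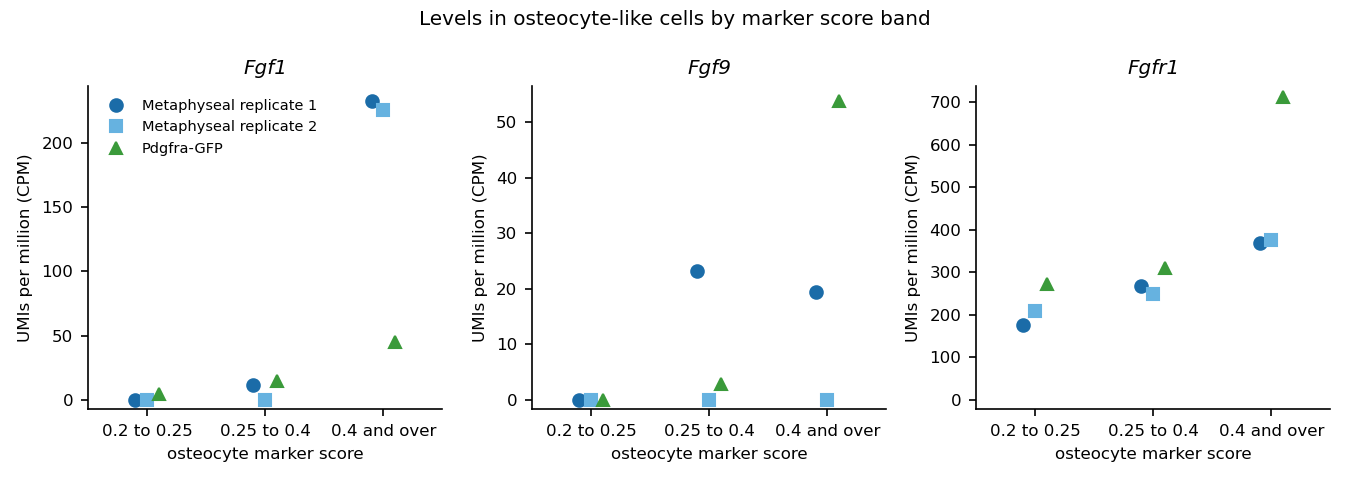
Levels of Fgf1, Fgf9 and Fgfr1 in CPM (vertical axes) in 3 bands of the osteocyte marker score (horizontal axis), with 1 point per library. In the highest band, of 3, 5 and 48 cells, Fgf1 reached 233, 226 and 44.8 CPM and Fgfr1 369, 376 and 712 CPM.

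Fgf2, Fgf9 and Fgf18 were found together in the superficial chondrocytes and fibroblasts of the Pdgfra-GFP library. These populations carried each other's markers. The superficial chondrocyte markers summed to 2900 CPM in fibroblasts, and the fibroblast markers to 3500 CPM in superficial chondrocytes. Near the limits of their gates lay 68 superficial chondrocytes and 24 fibroblasts. Fgf2, a ligand stored in cartilage matrix, was at 34.1 [28.0-41.0] CPM in superficial chondrocytes (111 UMIs) and 17.7 [10.3-28.3] CPM in fibroblasts (17 UMIs). Fgf9 was at 32.2 [26.3-39.0] CPM in superficial chondrocytes, with a UMI in 9.19% of cells, and at 4.16 [1.13-10.7] CPM in fibroblasts (4 UMIs). Fgf18, a growth factor of chondrocytes and osteogenic mesenchyme, was at 11.7 [8.25-16.0] CPM in superficial chondrocytes (38 UMIs) and 17.7 [10.3-28.3] CPM in fibroblasts (17 UMIs). The Fgf2 and Fgf9 intervals of the superficial chondrocytes lay above those of the growth-plate chondrocytes of the same library, at 6.14 [4.91-7.59] and 0.357 [0.116-0.833] CPM, with no replicate to test them.

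In growth-plate chondrocytes Fgf2 was at 5.01, 2.77 and 6.14 CPM and in osteoblasts at 0.463, 0.549 and 0.195 CPM. The groups did not overlap, and the log2 fold change was 3.76 ± 0.53 (edgeR adjusted p = 1.88e-06), from 3, 2 and 86 chondrocyte UMIs. The marrow stroma had a mean of 4.52 ± 0.981 CPM (SD, n = 3), against which the chondrocytes did not pass the test (0.89 ± 0.39, adjusted p = 0.0618). Osteoblasts (-2.87 ± 0.50, adjusted p = 2.33e-05) and endothelium (-3.59 ± 0.55, adjusted p = 3.67e-06) were both lower than marrow stroma. Fgf18 had 1, 0 and 34 UMIs in growth-plate chondrocytes and 4 in all marrow stroma, and its fold changes rest on the Pdgfra-GFP library (2.60 ± 0.67 against osteoblasts, adjusted p = 0.00386, and 3.70 ± 0.68 against marrow stroma, adjusted p = 7.79e-05). The DESeq2 Wald test did not call the first (adjusted p = 0.176). Fgf9, with 0, 1 and 5 UMIs in chondrocytes and 0 in marrow stroma, was called by edgeR (adjusted p = 0.0157) and not by DESeq2 (adjusted p = 0.603). Its 6 pooled UMIs came to 3.36 times a limit of 3 counts in marrow stroma, without their counting error. Within libraries the chondrocyte levels were 0, 1.38 and 0.357 CPM, against marrow stroma limits of 0.672, 0.717 and 0.175 CPM.

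Most Fgf23 UMIs lay in sinusoidal endothelium, with 24, 8 and 3 UMIs in 9, 4 and 2 cells. The sinusoidal endothelium had 8.25 [5.28-12.3], 3.10 [1.34-6.11] and 6.78 [1.40-19.8] CPM, and 1.81%, 0.964% and 2.30% of its 498, 415 and 87 cells had a UMI. Arterial and metaphyseal endothelium had 0 UMIs in each library, and a count of 0 allows up to 5.08, 6.45 and 6.49 CPM in arterial and 0.922, 1.17 and 5.44 CPM in metaphyseal endothelium at the limit of 3 counts per library. A level like that of the sinusoids was therefore not detectable in the arterial cells of metaphyseal 2 or in the arterial or metaphyseal endothelium of the Pdgfra-GFP library, where the sinusoidal interval reached down to 1.40 CPM. None of the Fgf23-positive cells was called a doublet, and the highest count in a cell was 5, 3 and 2 UMIs.

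Among all kept cells, 9, 4 and 3 had a UMI of Fgf23, and the remaining cell was 1 osteocyte of the Pdgfra-GFP library with 1 UMI. Osteocytes of the metaphyseal libraries had 0 UMIs, which allows up to 11.2 and 11.5 CPM, so a level as high as that of the sinusoids was not detectable there. The barcodes with few UMIs held 0, 1 and 1 UMIs of Fgf23. Marrow stroma had 0 UMIs of Fgf23 in each library. Pooled over libraries, the 35 endothelial UMIs came to 21.0 times a limit of 3 counts in marrow stroma. This leaves out the counting error of the 35 and pools libraries that hold the populations in unlike shares. Within each library the fold was smaller. Endothelium had 3.43, 1.40 and 1.86 CPM, against limits of 0.672, 0.717 and 0.175 CPM in marrow stroma. Kl, the coreceptor of FGF23, had a mean of 1.79 CPM or less in every population.

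Between growth-plate chondrocytes and osteoblasts 5 of 8 members were called (4 higher), against 34.1% of 13419 genes (16.8% higher, 17.3% lower), with a median log2 fold change of 1.88 for members and -0.04 for all genes. Against marrow stroma, 7 of 8 were called in chondrocytes (background 49.3%, 22.3% higher and 27.1% lower, medians 1.57 and -0.15) and 6 of 8 in osteoblasts (52.0%, 23.0% higher and 28.9% lower, medians -1.34 and -0.14). In endothelium 7 of 8 were called (48.7%, 22.9% higher and 25.9% lower, medians -1.51 and -0.06). Of these, Fgf9 and Fgf18 were called from 3 and 8 endothelial UMIs and were lost under several alternatives, Fgf9 with an adjusted p of 0.721 and Fgf18 of 0.334 by the DESeq2 Wald test.

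In metaphyseal against marrow stroma 4 of 8 were called (background 22.3%, 9.81% higher and 12.4% lower, medians -0.61 and -0.10). Fgfr3 was higher (0.82 ± 0.27, edgeR adjusted p = 0.0293) and Fgfr2 lower (-0.93 ± 0.30, adjusted p = 0.026) in metaphyseal stroma, and both were lost under several settings, among them no replicate block (adjusted p = 0.22 and 0.198) and leaving out metaphyseal 1 (0.0598 and 0.349) or metaphyseal 2 (0.134 and 0.0686). Fgfr3 was also lost without Pdgfra-GFP (0.293), and Fgfr1 without the block (0.0592). Fgf1 (-1.34 ± 0.54, adjusted p = 0.0743) and Fgf2 (-1.49 ± 0.55, adjusted p = 0.0513) did not pass the test here, and each passed under some of the alternatives. In osteoblasts the lower Fgfr3 level against marrow stroma (-0.93 ± 0.26, adjusted p = 0.00399) was lost without metaphyseal 1 (0.0518) or metaphyseal 2 (0.0653) and without the block (0.0822). In osteocytes against osteoblasts 2 of 8 were called, Fgf1 and Fgf9, both higher (background 2.36%, 1.47% higher and 0.894% lower, medians 1.30 and -0.21).

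Septoclasts had less of 2 receptor genes than metaphyseal stroma, the stroma of the same region. Fgfr3 was at 0, 10.6 and 13.2 CPM against 38.2, 61.7 and 69.6 CPM, and the groups did not overlap. The septoclast values rested on 25 UMIs over all libraries, in 12, 11 and 222 cells. The sums of these cells held 121778, 93933 and 1823805 UMIs of all genes, and most of the 25 UMIs came from Pdgfra-GFP. The lack of overlap in the metaphyseal libraries therefore rests on very few counts. Fgfr2 was at 57.5, 106 and 55.9 CPM against 208, 241 and 185 CPM, again without overlap. The barcodes with few UMIs had 24.2, 29.2 and 39.6 CPM of Fgfr3 and 120, 131 and 91.5 CPM of Fgfr2. For both genes the septoclasts lay below these barcodes and the metaphyseal stroma above them in each library. For Fgfr3 the septoclast counts of the metaphyseal libraries are too few to settle this order. The log2 fold changes were -2.41 ± 0.44 for Fgfr3 (edgeR adjusted p = 0.000782) and -1.79 ± 0.40 for Fgfr2 (adjusted p = 0.00504), so 2 of 8 members were called, both lower (background 5.13%, 2.67% higher and 2.46% lower, medians -1.10 and -0.08). The Fgfr2 call was lost without metaphyseal 1 (adjusted p = 0.109) and without the replicate block (0.0604), and the Fgfr3 call without Pdgfra-GFP (0.0697). Fgfr1 did not pass the test (-0.54 ± 0.30, adjusted p = 0.433).

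**Figure D3:**
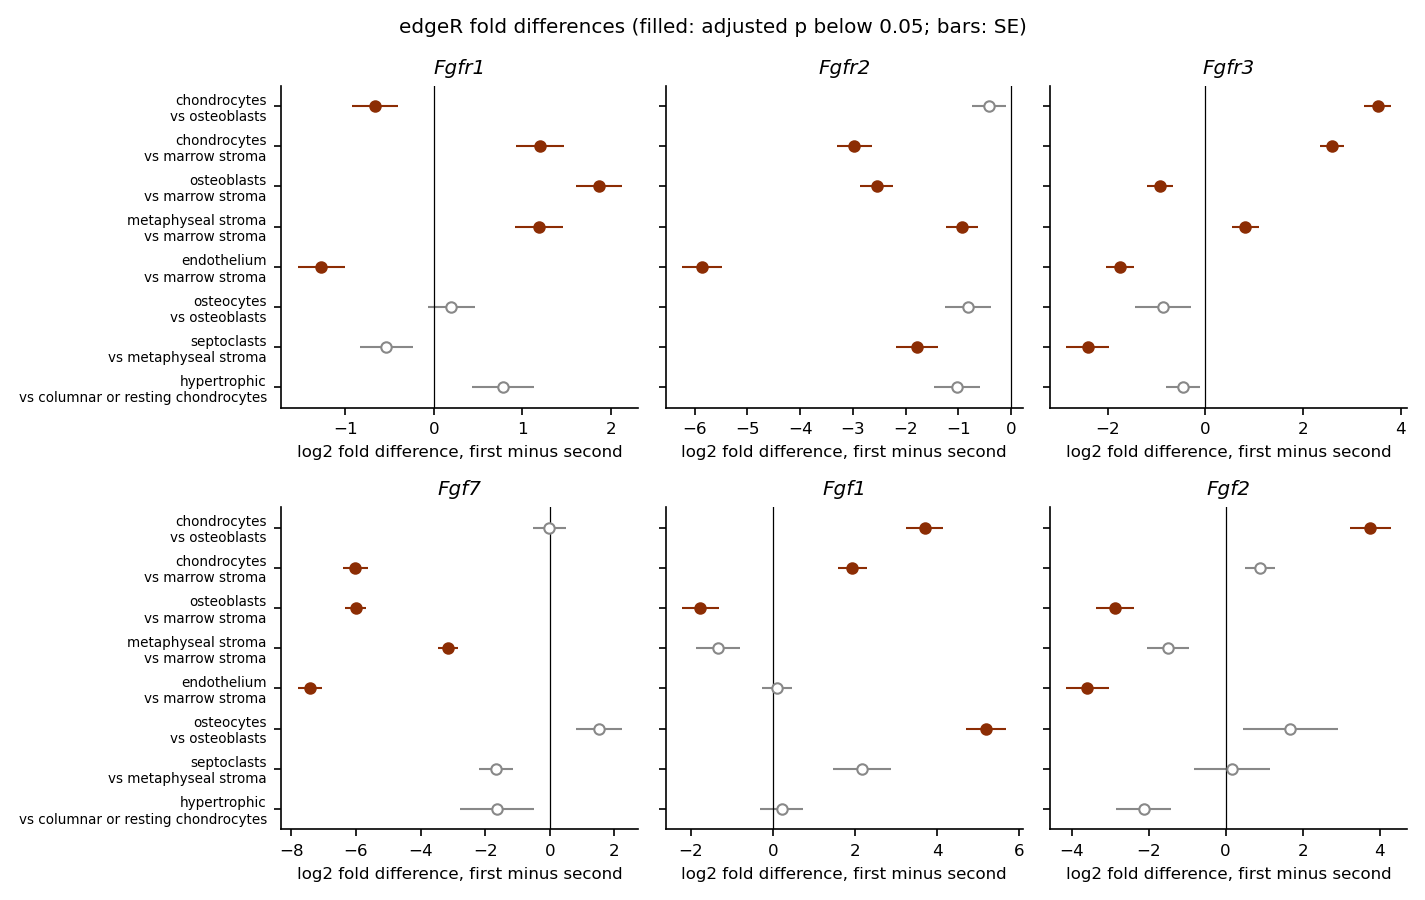
Log2 fold changes from edgeR (horizontal axes, first population minus second) of Fgfr1, Fgfr2, Fgfr3, Fgf7, Fgf1 and Fgf2 in 8 comparisons (vertical axis), with SE bars and filled points where the adjusted p was below 0.05. Fgfr3 was at 3.53 in chondrocytes against osteoblasts and Fgf7 at -6.02 in chondrocytes against marrow stroma.

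Beyond the members, 54 other genes of the pathway were followed, of which 35 passed the filter. The feedback inhibitors and transcriptional targets of FGF signalling (12 genes, 11 tested) were compared in the same way. Against marrow stroma, 8 of the 11 were lower in osteoblasts and none higher (median log2 fold change -1.41), where 28.9% of all genes were lower. In chondrocytes 6 were lower and 1 higher (median -1.14), where 27.1% of all genes were lower and 22.3% higher. In metaphyseal stroma 4 were lower and none higher (median -0.50), where 12.4% of all genes were lower. In endothelium 4 were lower and 1 higher (median -0.05), near the shares of all genes at 25.9% and 22.9%. The all-gene medians of these comparisons were between -0.15 and -0.06. Spry1, a Sprouty inhibitor of receptor tyrosine kinase signalling, had a mean of 277 CPM in marrow stroma, 18.3 CPM in metaphyseal stroma, 8.76 CPM in osteoblasts and 1.72 CPM in chondrocytes, with log2 fold changes of -4.08 ± 0.33, -4.24 ± 0.29 and -5.58 ± 0.37 (edgeR adjusted p = 2.75e-10, 4.56e-13 and 4.44e-13). Spry4 and Il17rd, also inhibitors of the pathway, were lower than in marrow stroma in chondrocytes, osteoblasts, metaphyseal stroma and endothelium. The phosphatase gene Dusp6 was higher in endothelium, at a mean of 145 CPM against 33.1 CPM (2.13 ± 0.19, adjusted p = 6.61e-11), and lower in chondrocytes and osteoblasts.

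Septoclasts had more of 3 of these 11 genes than metaphyseal stroma and less of none (median 1.22, all genes -0.08), where 2.67% of all genes were higher. Spry4 was at a mean of 35.6 ± 26.1 against 10.3 ± 6.24 CPM (SD, n = 3), with a log2 fold change of 1.75 ± 0.35 (edgeR adjusted p = 0.00185). Dusp6 was at 70.1 ± 22.3 against 23.6 ± 5.18 CPM (1.45 ± 0.28, adjusted p = 0.00142), beside Dusp5 (2.38 ± 0.61, adjusted p = 0.0149). These targets respond to several receptor tyrosine kinases, and no FGF signal was measured. Egfr, a receptor tyrosine kinase gene, is itself a marker in the septoclast gate. Its part in these values was not tested.

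Among coreceptors, Fgfrl1, an FGF receptor without a kinase domain, was higher in growth-plate chondrocytes than in osteoblasts, at a mean of 186 against 10.4 CPM (3.82 ± 0.24, edgeR adjusted p = 1.67e-13), and higher than in marrow stroma at 119 CPM (1.13 ± 0.21, adjusted p = 3.55e-05). Within the growth plate it was lower in hypertrophic than in columnar or resting cells, at 94.9 against 252 CPM (-1.23 ± 0.26, adjusted p = 0.0021). Of the 9 heparan sulphate proteoglycan genes, 7 were lower and 1 higher in endothelium than in marrow stroma (median -4.17), where 25.9% of all genes were lower and 22.9% higher with a median of -0.06. The 1 was Hspg2, which encodes perlecan, at 593 against 122 CPM (2.29 ± 0.25, adjusted p = 8.19e-09).

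Of the 3 genes whose products process FGF23 protein, Fam20c, which encodes the kinase that marks it for cleavage, was higher in osteocytes than in osteoblasts (141 against 24.7 CPM, log2 fold change 2.46 ± 0.42, edgeR adjusted p = 0.000515) and in hypertrophic than in columnar or resting chondrocytes (434 against 53.9 CPM, 2.75 ± 0.43, adjusted p = 5.52e-05). Galnt3, whose product protects FGF23 from cleavage, was higher in osteoblasts than in marrow stroma, at 27.6 against 1.5 CPM (4.77 ± 0.28, adjusted p = 3.75e-13). Both are measured in populations where Fgf23 itself had at most 1 UMI. Of the 16 other ligand genes 2 were tested, and Fgf13, an intracellular member of the family, had a mean of 21.5 CPM in marrow stroma and 20.9 CPM in metaphyseal stroma.

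The genes whose levels followed each member most closely were ranked over 32 population sums of 12 populations and 9747 genes, by Pearson's r of log2(CPM + 10). The sums share libraries and several populations share lineage, so r is a description. Fgfr3 was followed by Nog (0.873) and Sox9 (0.861), an inhibitor of bone morphogenetic proteins and a transcription factor of chondrocytes. The nearest to Fgfr1 were Crtap (0.94) and Maged1 (0.918), the nearest to Fgfr2 were Cp (0.922) and Igsf3 (0.908), and the nearest to Fgf7 were Negr1 (0.96) and Ms4a4d (0.954). Fgf2 was followed by Angptl1 (0.864), and the highest values of Fgf1 and Fgf9 were 0.715 for Egr3 and 0.719 for Ptx4.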

How the data were processed

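Raw UMI counts per gene and barcode were deposited by the authors, who trimmed reads with fastp 0.20 and aligned and counted them with STAR 2.7.3a (STARsolo) on mm10 and Gencode genes with an added H2B-GFP sequence, per the labels and the study's methods. The members, marker lists, pathway lists and comparisons were chosen with earlier results of these data known. Cells had at least 1500 (metaphyseal) or 1000 (Pdgfra-GFP) genes, at most 15% mitochondrial and 30% ribosomal UMIs, with total counts of 25243314, 22082735 and 91747759 UMIs per library. The authors' empty-droplet caller was not rerun, and barcodes with up to 100 UMIs gave the make-up of free RNA. Called doublets (25, 18 and 168 cells) were kept, and removed in an alternative.

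Each cell joined the population with the highest marker score, at a minimum of 0.25 and a margin of 0.05 (osteocytes 0.2, hypertrophic 0.3, columnar or resting 0.2), with Python 3.11.15 and scanpy 1.11.5. The UMIs of each population were added up within a library (10 cells or more) and tested with edgeR 4.0.16 (R 4.3.3), TMM factors and the library as a block. Sums sharing a library deviated together, with correlations over population pairs of 0.051 to 0.67, 0.0439 to 0.671 and 0.266 to 0.767, and they share the same preparation. On simulated chondrocytes against osteoblasts, 200 of 200 genes changed 4-fold were found, with 6 false calls among 11722 genes. The changed genes had means above 10 CPM, and all genes shared 1 spread with no library effect. The simulation therefore does not cover members at low counts or the shared deviations of a library. All members are named. Only some are named of the pathway genes called in a comparison, and of the nearest genes by correlation of members with at least 20 CPM. Alternatives were DESeq2 1.42.0 size factors and Wald test, no filter, no block, each library left out, a stricter gate (1.5-fold), clusters, doublets removed, thinning to 2000 UMIs, and, chosen after seeing the data, library totals alone. The zone comparison, the score bands and the cycling cells were also added after seeing the data. Gene positions are from Gencode M21.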

Additional observations from a re-analysis of the deposited data

Results flagged for a closer look

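In 4 results the Pdgfra-GFP library moved against both metaphyseal libraries, and none of these differences was tested. Fgfr1 in chondrocytes against osteoblasts had a log2 ratio of CPM of 0.22 in Pdgfra-GFP and of -0.80 and -0.48 in the metaphyseal libraries, from 85, 128 and 3832 chondrocyte UMIs. Fgfr2 in the same comparison was at 0.56 against -1.33 and -0.51, from 10, 25 and 678 chondrocyte UMIs. Fgf2 in chondrocytes against marrow stroma was at 0.86 against -0.04 and -0.86, from 3, 2 and 86 chondrocyte UMIs. Fgfr3 in hypertrophic against columnar or resting chondrocytes was at 0.69 against -1.01 and -2.27, from 23, 14 and 428 hypertrophic UMIs.

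The TMM factors of the osteoblast sums were 0.797, 0.777 and 0.589, and the 10 most abundant genes took 25.4%, 26.1% and 35.8% of the osteoblast UMIs. Bglap, an osteoblast gene, was at 16.7, 56.7 and 724 CPM in the growth-plate chondrocytes. Their part in these 4 results was not tested.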

How the results depend on the processing

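Over the 33 member results that were called, 280 alternatives kept the direction, 253 of them with the call and 27 without it. In 90 fits without 1 library, 76 kept the call, 14 lost it and 0 turned the direction. Fits in which a gene gave no value are not among the 280 or the 90. The called results of Fgf2, Fgf9 and Fgf18 gave a value in only 2 fits without 1 library each. Whether their calls hold in the missing fit is therefore not known. With cells thinned, the genes called were 2266 in chondrocytes against osteoblasts (4577 as reported), 3955 in chondrocytes (6622) and 4640 in osteoblasts (6973) against marrow stroma, 1803 in metaphyseal against marrow stroma (2986), 189 in osteocytes against osteoblasts (317), 373 in septoclasts against metaphyseal stroma (688) and 377 between zones (1107). With no replicate block they were 2760, 4602 (osteoblasts against marrow stroma), 1660, 114, 283 and 477, in the order above without chondrocytes against marrow stroma. With no filter, osteocytes against osteoblasts gave 570. Without 1 library the counts ran from 1764 to 2314 in metaphyseal against marrow stroma, 126 to 165 in osteocytes against osteoblasts, 197 to 441 in septoclasts, 468 to 809 between zones, 3086 to 3415 in chondrocytes against osteoblasts, and, against marrow stroma, 4644 to 5449 in chondrocytes, 5091 to 6324 in osteoblasts and 4773 to 6358 in endothelium.

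The direction turned for members that were not called, and the cause was not tested. In chondrocytes against osteoblasts Fgfr2 was at 0.30 with cells thinned and Fgf7 at 0.11 (DESeq2 size factors), 0.39 (library totals only) and 0.06 (no replicate block). Between zones Fgfr3 was at 0.12 thinned and 0.07 with the stricter gate, and from -1.65 to 0.02 without 1 library, beside Fgf1 (-0.14 to 1.13) and Fgf7 (-2.53 to 4.85). In osteocytes against osteoblasts Fgfr1 ran from -0.02 to 0.34 and Fgf7 from -4.63 to 1.72.

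Library totals alone moved the median log2 fold change of all genes from -0.04 to 0.32 in chondrocytes against osteoblasts, from -0.15 to -0.55 in chondrocytes and from -0.14 to -0.90 in osteoblasts against marrow stroma, and the share of higher calls from 49.1% to 73.7%, 45.2% to 26.5% and 44.3% to 14.7%. In osteocytes against osteoblasts that share was 62.1%, and 86.6% with library totals or 82.3% with DESeq2 size factors. The stricter gate left too few cells for septoclasts and osteocytes. Clusters gave no value for these or for the zones, and no cluster was named septoclast or osteocyte. Of the 52, 40 and 1144 metaphyseal stroma cells, 14, 14 and 730 fell in a cluster of that name. Of the 38, 36 and 1519 growth-plate chondrocytes, 18, 25 and 1373 did. Counts of 6 or fewer metaphyseal UMIs limit Fgf2, Fgf9, Fgf18 and Fgfr4 in chondrocytes.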
